A study of Homo sapiens with 4 samples.

Results

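The 10 genes described here belong to the integrated stress response, the pathway that lowers overall initiation of translation while it favours a few mRNAs. They were taken by name from the 28198 genes of the table, and all 10 were present and passed the minimum of 1 FPKM on average. MDA-MB-231, a human triple-negative breast cancer line, was depleted of METTL3, the catalytic subunit of the m6A methyltransferase, and reconstituted through lentiviruses with METTL3 WT or with METTL3 K177Q, an acetylation-mimetic form. Cells of both genotypes received 100 µg/mL cycloheximide for 5 min, which arrests elongating ribosomes, and their lysates were separated on sucrose gradients. The gradient fractions were pooled into a sub-polysome fraction and a polysome fraction, and poly(A)-selected RNA of each was sequenced. This gave 4 libraries, 1 per genotype and fraction, all labelled replicate 2 and all from 1 cell line. Replicate 1 was not analysed here, because its columns match none of the listed samples. The values therefore stand without a spread between replicates, and METTL3 K177Q was compared with METTL3 WT without a test.

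Phosphorylation of the initiation factor eIF2 by the kinases HRI (EIF2AK1), PKR (EIF2AK2), PERK (EIF2AK3) and GCN2 (EIF2AK4) limits delivery of the initiator tRNA to ribosomes. Short upstream open reading frames (uORFs) in the 5′ leader of some mRNAs keep ribosomes from the main start codon in unstressed cells, and this hindrance is relieved when eIF2 is phosphorylated. ATF4 and ATF5 are transcription factors under such control, DDIT3 encodes the transcription factor CHOP, PPP1R15A (GADD34) and PPP1R15B (CReP) bring protein phosphatase 1 to eIF2, and TRIB3 is a pseudokinase induced by ATF4 and CHOP that binds ATF4.

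The uORF starts of 5 of these mRNAs are shown because they are the sequence feature for which the genes are known. They were read from the canonical transcripts of GENCODE 44 on GRCh38, the same assembly as the hg38 build of the submitters. Each window runs 5′ to 3′ along the mRNA, in DNA letters, with 9 bases before and 12 bases after the upstream ATG, which is in capitals.
ATF4, second upstream ATG, chr22:39520648-39520650, + strand: acggccaccATGgcgtattagggg
ATF4, last upstream ATG, chr22:39520747-39520749, + strand: gcttaagccATGgcgcttctcacg
ATF5, first upstream ATG, chr19:49929274-49929276, + strand: gccccggccATGgctctgtagcct
ATF5, second upstream ATG, chr19:49929396-49929398, + strand: gctgcagccATGgagtcttccact
DDIT3, first upstream ATG, chr12:57520478-57520480, - strand: gagcgtatcATGttaaagatgagc
PPP1R15A, second upstream ATG, chr19:48872554-48872556, + strand: gagggtgagATGaacgcgctggcc
PPP1R15B, second upstream ATG, chr1:204411640-204411642, - strand: cccgccaggATGgaagtcgcatca
All of these starts lie in exons, in the 5′ leader. The ATF4 gene spans 39519695 to 39522683 on chromosome 22, ATF5 spans 49928702 to 49933935 on chromosome 19 and DDIT3 spans 57516588 to 57521737 on chromosome 12. ATF4 and ATF5 had the same layout in these transcripts. In each, a uORF of 3 codons was followed by one of 59 codons that overlaps the main coding sequence in another frame. The ATF4 leader of 282 bases also held an ATG directly followed by a stop codon, further upstream. The DDIT3 uORF of 34 codons ended before the main start codon and held a second ATG in the same frame, and the last upstream ATG opened a frame of 73 codons that overlaps the coding sequence. The PPP1R15A leader held uORFs of 22 and 26 codons and the PPP1R15B leader held uORFs of 8 and 51 codons, all of which ended before the main start codon. TRIB3 had 2 upstream ATGs, EIF2AK2 and EIF2AK3 had 1 each, and EIF2AK1 and EIF2AK4 had 0. The upstream ATG of EIF2AK3 opened a frame of 8 codons that overlaps the coding sequence. An upstream ATG was present in 8 of the 10 genes, against 42.0% of 19554 coding genes, and a uORF overlapping the coding sequence in 4 of the 10, against 13.3%. Several of the genes were listed for their uORFs, so these shares describe the list and no more.

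The depth was known only approximately, because the table used here gives FPKM (fragments per kilobase of transcript, relative to the mapped fragments) and not counts. The sums of FPKM in METTL3 WT cells were 899550 (sub-polysome) and 818984 (polysome), and those in METTL3 K177Q cells were 1037594 and 767949. The lowest cluster of FPKM multiplied by transcript length, taken as 1 fragment, gave 24300000 to 26000000 fragments per library. Errors from this depth cover counting only. They are given as the standard error of a log2 ratio and understate the error of a repeated experiment. The METTL3 mRNA, whose reconstituted form carries the genotype, was at 9.39 FPKM (sub-polysome) and 38.7 FPKM (polysome) with METTL3 WT, and at 5.07 FPKM and 29.5 FPKM with METTL3 K177Q. It was thus 1.83-fold and 1.31-fold lower with METTL3 K177Q. A difference in METTL3 level cannot be told apart from the mutation here. Markers of the line were present, with VIM between 677 and 1543 FPKM and CD44 between 110 and 151 FPKM. ESR1 and PGR, the hormone receptors this line lacks, were at most at 0.012 FPKM, and CDH1 at most at 0.63 FPKM. ERBB2 was between 12.2 and 28.3 FPKM and EPCAM between 6.20 and 9.91 FPKM.

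ATF4 was the most abundant of the 10 mRNAs and the one with the lowest polysome level relative to its sub-polysome level. With METTL3 WT it was at 388 FPKM (sub-polysome) and 122 FPKM (polysome), and in METTL3 K177Q cells at 354 FPKM and 85.1 FPKM. Both sub-polysome levels were above both polysome levels. As bulk libraries these cannot tell fewer cells that hold an mRNA from less of it per cell. ATF5 was at 29.2 and 12.6 FPKM in METTL3 WT cells and at 29.0 and 11.3 FPKM in METTL3 K177Q cells, sub-polysome first here and in the sentences on levels that follow. DDIT3 was at 42.1 and 19.96 FPKM in METTL3 WT cells and at 47.8 and 15.2 FPKM in METTL3 K177Q cells. In both genes the sub-polysome and polysome levels did not overlap. The share of all genes with fractions separated in this way is not given here, for these or the other genes.

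Of the phosphatase subunits, PPP1R15A, the inducible one, was the second most abundant mRNA of the list. It was at 89.2 and 45.7 FPKM in METTL3 WT cells and at 102 and 47.8 FPKM in METTL3 K177Q cells. The constitutive PPP1R15B was at 7.96 and 4.28 FPKM in METTL3 WT cells and at 7.47 and 4.98 FPKM in METTL3 K177Q cells. Both subunits had higher sub-polysome than polysome levels in each genotype. TRIB3 had similar FPKM in both fractions, at 21.99 and 19.1 FPKM in METTL3 WT cells and at 23.6 and 22.7 FPKM in METTL3 K177Q cells.

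The eIF2 kinases did not share a pattern. EIF2AK1 (HRI, which senses heme and mitochondrial stress) was at 29.0 and 18.5 FPKM in METTL3 WT cells and at 30.1 and 21.9 FPKM in METTL3 K177Q cells. It was the most abundant kinase mRNA and the only kinase with higher sub-polysome than polysome levels in both genotypes. EIF2AK4 (GCN2, which senses uncharged tRNA) was at 3.19 and 6.06 FPKM in METTL3 WT cells and at 3.13 and 5.27 FPKM in METTL3 K177Q cells, the opposite distribution. EIF2AK2 (PKR, which senses double-stranded RNA) was at 2.36 and 3.02 FPKM in METTL3 WT cells and at 2.14 and 2.54 FPKM in METTL3 K177Q cells. EIF2AK3 (PERK, which senses unfolded proteins in the endoplasmic reticulum) was the least abundant of the list, between 1.49 and 1.78 FPKM in the 4 libraries, and its fractions overlapped.

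**Figure D1:**
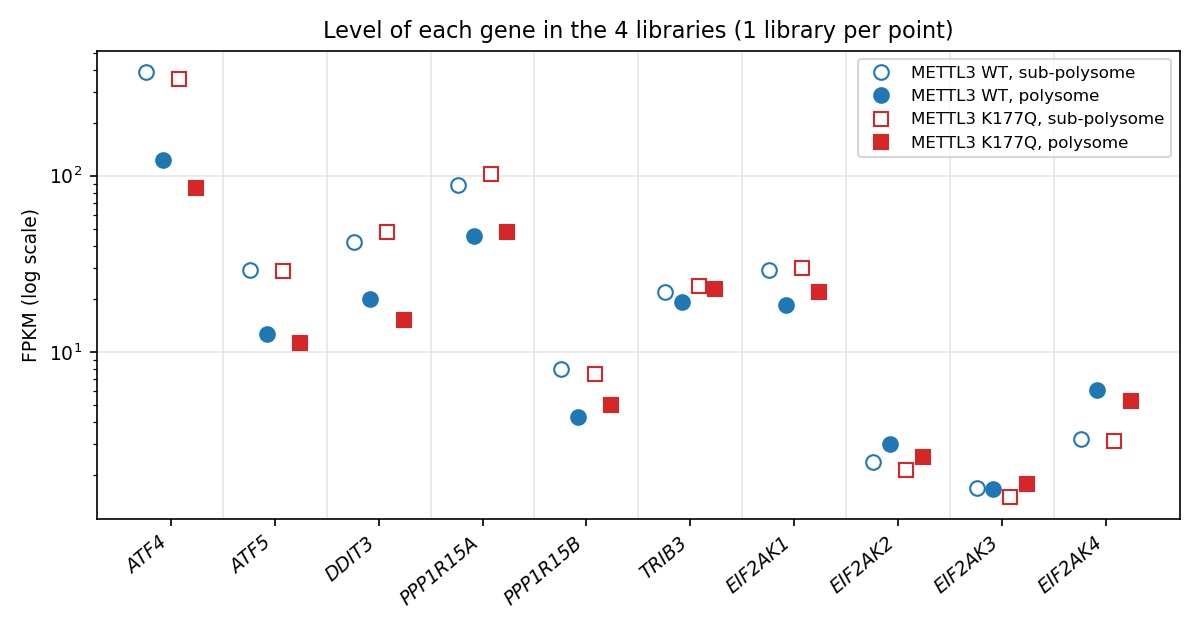
FPKM of each of the 10 genes on a log scale, with 1 point per library (circles METTL3 WT, squares METTL3 K177Q, open sub-polysome, filled polysome). ATF4, ATF5, DDIT3, PPP1R15A, PPP1R15B and EIF2AK1 have both open symbols above both filled ones, and EIF2AK4 and EIF2AK2 have them below. The share of all genes separated in these ways is not given.

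By the mean over the 4 libraries, the order of levels was ATF4 (237 FPKM), PPP1R15A (71.2), DDIT3 (31.3), EIF2AK1 (24.9), TRIB3 (21.9), ATF5 (20.5), PPP1R15B (6.17), EIF2AK4 (4.41), EIF2AK2 (2.51) and EIF2AK3 (1.66). ATF4 was above 94.9% of the 10905 genes that passed the minimum, and EIF2AK3 above 9.19%. The ranges of DDIT3, EIF2AK1, TRIB3 and ATF5 over the libraries overlapped, so the order among these 4 depends on the library. PPP1R15B was above EIF2AK4 in both sub-polysome libraries and below it in both polysome libraries.

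The polysome to sub-polysome ratio, here called translation efficiency, was computed on the log2 scale after adding 0.1 to each FPKM. FPKM is relative to each library, so a ratio of 1 does not mean equal amounts of the mRNA in both fractions. In METTL3 WT cells ATF4 had a log2 ratio of -1.67 (counting SE 0.025), a polysome level 3.17-fold below the sub-polysome level, and 3.60% of the genes were lower. ATF5 had -1.21 (SE 0.068), DDIT3 -1.07 (SE 0.081), PPP1R15A -0.96 (SE 0.034) and PPP1R15B -0.88 (SE 0.074). These 5 mRNAs, whose uORF starts are shown above, held the 5 lowest ratios of the list, between 1.84-fold and 3.17-fold below 1. TRIB3, which has 2 upstream ATGs as ATF5 does, was not among them, nor were EIF2AK2 and EIF2AK3, with 1 each. The genes were chosen with earlier results of these data known, and a link between uORFs and these ratios was not tested. EIF2AK1 followed with -0.65 (SE 0.040), then TRIB3 with -0.20 (SE 0.058), EIF2AK3 with -0.01 (SE 0.15), EIF2AK2 with 0.34 (SE 0.078) and EIF2AK4 with 0.90 (SE 0.084). Of neighbours in this order, ATF5 and DDIT3, DDIT3 and PPP1R15A, PPP1R15A and PPP1R15B, and TRIB3 and EIF2AK3 were not told apart by the 95% counting interval of their difference. The interval left out 0 for the other neighbours, narrowly so for EIF2AK3 and EIF2AK2, which differed by 0.35 (0.02 to 0.67).

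In METTL3 WT cells 6 of the 10 genes were at least 1.5-fold lower in the polysome fraction, where 19.1% of all genes were, and 1 was at least 1.5-fold higher, against 28.1%. Of the 6, EIF2AK1 was closest to the limit, at -0.65. TPM moved the median log2 ratio of all genes by 0.13 in these cells, so the number lower can depend on the scaling. The median of the list was -0.76, beside 0.14 for all genes. In METTL3 K177Q cells 4 of the 10 were at least 1.5-fold lower, against a background of 21.3%, and 1 was higher, against 30.2%. The number higher depended on the scaling, with 3 under TPM and 0 relative to the median of all genes, where EIF2AK4 was at 0.57. As given in FPKM, the list had a median of -0.52 in METTL3 K177Q cells, beside 0.16 for all genes. PPP1R15B and EIF2AK1 were the genes counted in METTL3 WT and not in METTL3 K177Q cells, and PPP1R15B missed the limit narrowly at 1.49-fold. Relative to the median of all genes, both passed it, and 6 of the 10 genes were then lower in each genotype, against 24% and 26.4% of all genes. ATF4 had a log2 ratio of -2.06 (SE 0.029) in METTL3 K177Q cells, DDIT3 -1.65 (SE 0.089), ATF5 -1.35 (SE 0.071) and PPP1R15A -1.09 (SE 0.033). These 4 remained the lowest of the list, with DDIT3 now below ATF5. EIF2AK1 was at -0.46, TRIB3 at -0.06, EIF2AK2 and EIF2AK3 both at 0.24, and EIF2AK4 at 0.74.

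**Figure D2:**
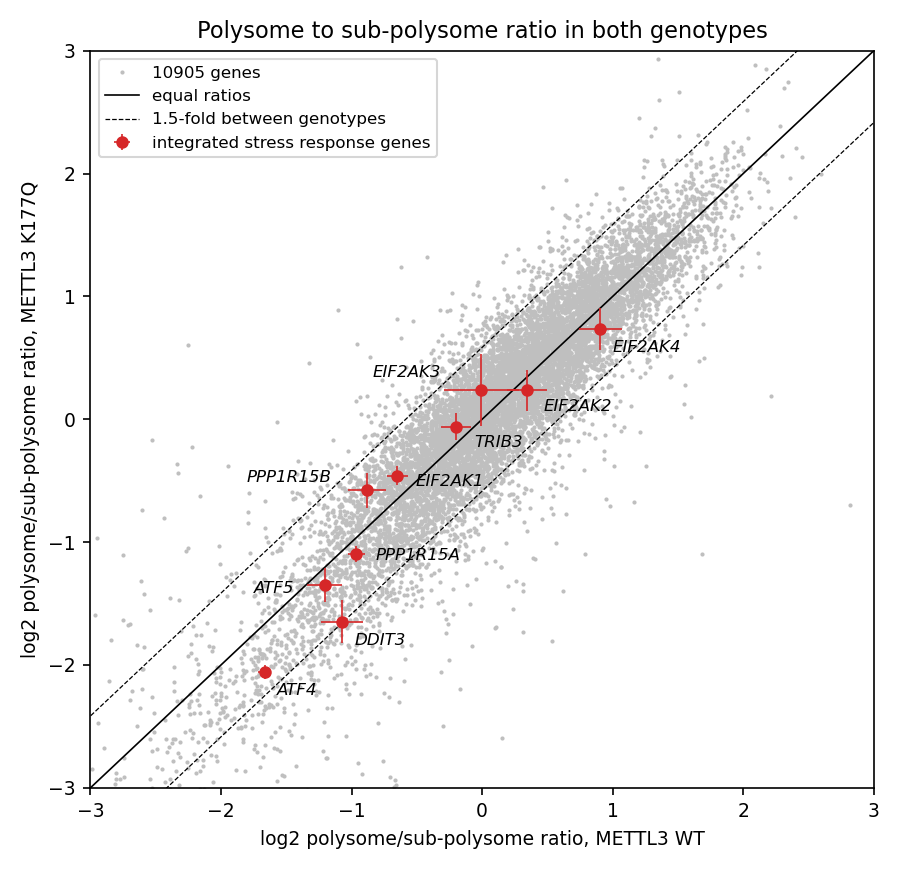
log2 polysome to sub-polysome ratio of each gene in METTL3 WT (x axis) and METTL3 K177Q cells (y axis), with all 10905 genes in grey and the 10 genes in red with bars of 95% counting error; axes stop at 3 and leave out 150 genes. ATF4 lies lowest at -1.67 and -2.06, EIF2AK4 highest at 0.90 and 0.74, and all 10 lie within the dashed lines that mark 1.5-fold between genotypes.

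Across all genes with a coding annotation, the polysome to sub-polysome ratio was lower the more upstream ATGs a leader held. In METTL3 WT cells the median log2 ratio was 0.32 for 6401 genes with 0 upstream ATGs, 0.07 for 1902 genes with 1, -0.06 for 865 genes with 2 and -0.15 for 1099 genes with 3 or more. ATF4 and DDIT3, with 3 each, were below the lower quartile of their class (-0.60), and ATF5, PPP1R15A and PPP1R15B were below that of genes with 2 (-0.50). TRIB3, also with 2, lay inside the quartiles of its class. EIF2AK2 and EIF2AK3, with 1 each, also lay inside the quartiles of their class (-0.43 and 0.56), at 0.34 and -0.01. EIF2AK1 and EIF2AK4 each have a leader without an upstream ATG and stood on opposite sides of their class, at -0.65 and 0.90, with quartiles of -0.18 and 0.80.

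**Figure D3:**
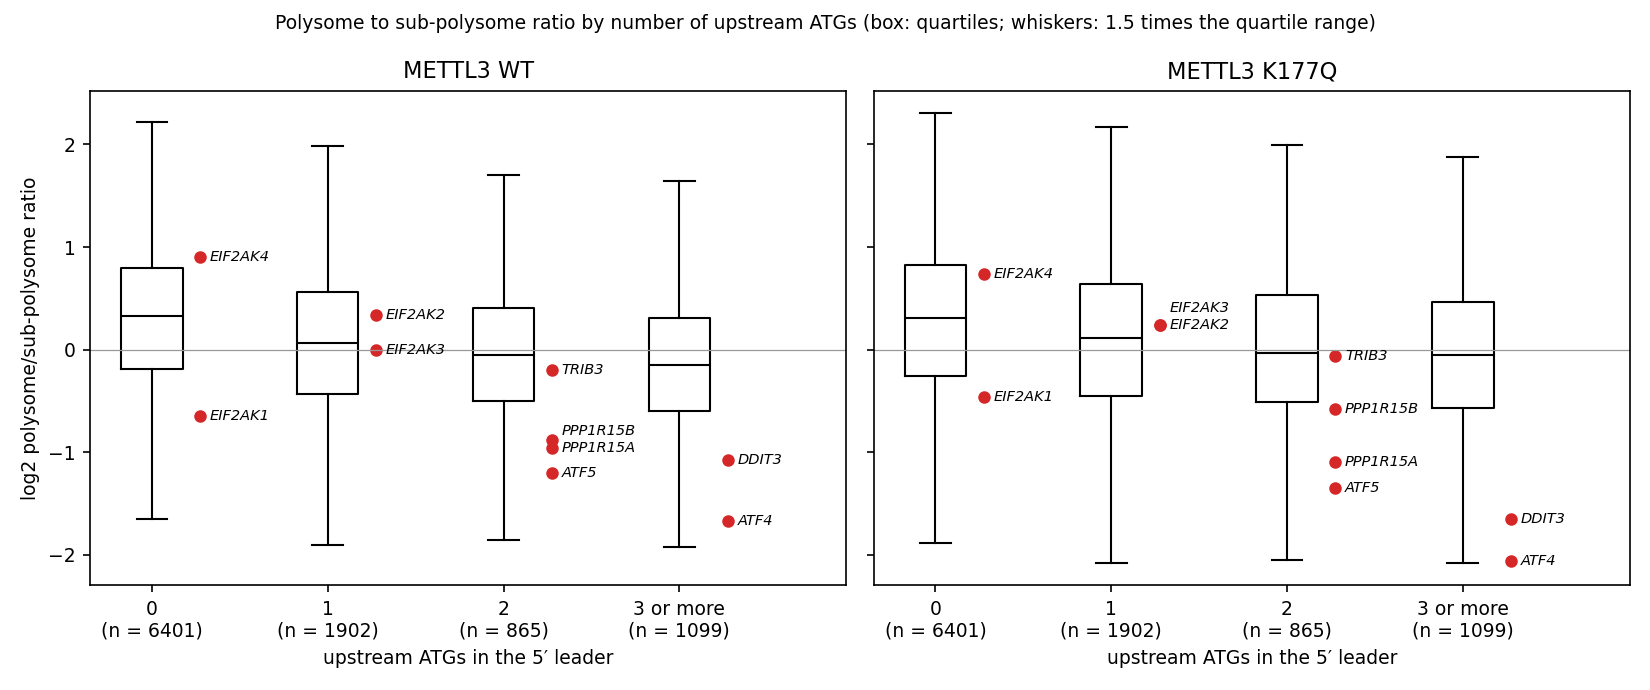
log2 polysome to sub-polysome ratio (y axis) of genes grouped by the number of upstream ATGs in the canonical leader (x axis), for METTL3 WT (left) and METTL3 K177Q cells (right), with boxes for all genes and red points for the 10 genes. Box medians step down from 0.32 to -0.15 in METTL3 WT cells, and ATF4, DDIT3, ATF5, PPP1R15A and PPP1R15B lie below the boxes of their classes there.

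Short coding sequences carry fewer ribosomes, and the coding length differed among the genes, from 507 bases in DDIT3 to 4947 bases in EIF2AK4. The median log2 ratio in METTL3 WT cells was -0.30 for 1467 genes with under 600 coding bases, 0.18 for lengths from 600 to under 1200, 0.27 from 1200 to under 2400 and 0.36 for 2400 or more. Within their own length class, 1.55% of genes were lower than ATF4 and 4.76% lower than ATF5. In the same way 4.04% were lower than PPP1R15A, 5.32% lower than PPP1R15B and 18.8% lower than DDIT3. DDIT3 was thus less extreme among genes of its length than among all genes, where 8.91% were lower, and the other 4 were more so. With 600 to under 1200 coding bases, 310 genes with an overlapping uORF had a median of -0.28 and 2781 genes without one had 0.23. The medians with and without one were -0.87 and -0.25 under 600 bases. They were -0.08 and 0.32 from 1200 to under 2400, and 0.21 and 0.38 for 2400 or more. These differences were not tested.

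Between the genotypes, the translation efficiency of 0 of the 10 genes was raised 1.5-fold or more with METTL3 K177Q, where that of 4.08% of all genes was. Also 0 were at least 1.5-fold lower, where 7.03% of all genes were. With 1 library per condition analysed, neither count was tested. TPM gave 1 higher, PPP1R15B at 0.60, and 0 lower, against 18.6% and 2.83% of all genes. Median-of-ratios size factors put DDIT3 just past the limit at -0.59, with a median of all genes of -0.03. The share of all genes past the limit under size factors is not given here. In FPKM as given, DDIT3 came closest, with -0.58 on the log2 scale, METTL3 K177Q over METTL3 WT (counting SE 0.12), 1.49-fold lower. Counting error alone does not place it on either side of the 1.5-fold limit. ATF4 had -0.39 (SE 0.038), 1.31-fold lower, and 14.8% of the genes were lower. On the other side PPP1R15B had 0.30 (SE 0.10), 1.23-fold higher, and EIF2AK1 had 0.19 (SE 0.056). EIF2AK3 had 0.25 (SE 0.21) and TRIB3 0.14 (SE 0.080), both within 95% counting error of 0. ATF5 had -0.14 (SE 0.098), PPP1R15A -0.13 (SE 0.047), EIF2AK2 -0.11 (SE 0.12) and EIF2AK4 -0.17 (SE 0.12).

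These signs depend on how the libraries are scaled to each other, since FPKM is relative to each library's total. Rescaling every library to the same total (TPM) added 0.30 to the median of all genes, and equal totals without ribosomal protein genes added 0.23. With TPM, DDIT3 was at -0.28 and ATF4 at -0.09, and ATF5, PPP1R15A, EIF2AK2 and EIF2AK4 were above 0, at 0.15, 0.17, 0.18 and 0.12. Relative to the median of all genes, which leaves out such shifts, DDIT3 was at -0.57, ATF4 at -0.38 and PPP1R15B at 0.31, and 6 of the 10 genes were below and 4 above. That split was the same with TPM, with equal totals and with median-of-ratios size factors. This follows from their construction, since each shifts all genes by nearly the same amount. The ribosomal protein genes held 26.1% of the FPKM of the METTL3 WT sub-polysome library and 26.4% of the METTL3 K177Q one, and 17.6% and 14.3% of the polysome libraries. Their part in the ratios was not tested.

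Within the polysome fraction, 0 of the 10 genes were 1.5-fold higher and 0 were 1.5-fold lower in METTL3 K177Q cells, with backgrounds of 2.13% and 3.13%. ATF4 had the largest difference there, a log2 ratio of -0.52 (SE 0.034), and 4.02% of all genes were lower. DDIT3 had -0.39 (SE 0.10) and EIF2AK2 -0.24 (SE 0.077), while TRIB3 had 0.24 (SE 0.057), EIF2AK1 0.24 (SE 0.043) and PPP1R15B 0.21 (SE 0.082). Within the sub-polysome fraction 0 were higher and 0 lower as well, with backgrounds of 4.01% and 2.94%. The range there was narrower, from -0.17 in EIF2AK3 to 0.20 in PPP1R15A (SE 0.027). ATF4 was lower in both fractions of METTL3 K177Q cells, with -0.13 (SE 0.018) in the sub-polysome fraction. DDIT3 had 0.19 (SE 0.064) in the sub-polysome and -0.39 in the polysome fraction. The sign of the sub-polysome value of DDIT3 depended on the scaling, with -0.02 under TPM, 0.20 under median-of-ratios size factors and 0.19 relative to the median of all genes. TPM moved that median by -0.20 in this fraction. PPP1R15A, TRIB3 and EIF2AK1 were also below 0 there under TPM, at -0.01, -0.10 and -0.15, and above 0 under size factors, at 0.21, 0.12 and 0.07. ATF4 was below 0 in both fractions under each of these scalings.

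**Figure D4:**
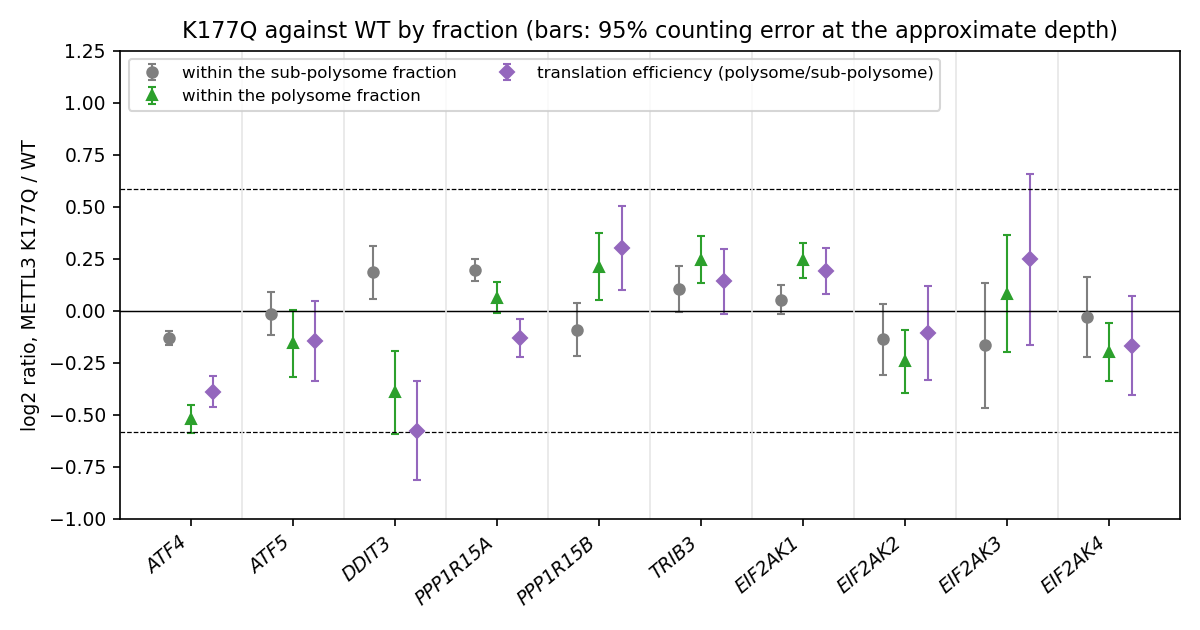
METTL3 K177Q over METTL3 WT on the log2 scale (y axis) for each of the 10 genes within the sub-polysome fraction (grey), within the polysome fraction (green) and for translation efficiency (purple), with bars of 95% counting error and dashed lines at 1.5-fold. ATF4 and DDIT3 have the lowest translation efficiency ratios, -0.39 and -0.58, and no point lies beyond the dashed lines.

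Genes on the opposite strand share exon bases with several of the 10 genes. The library kit was directional, but the strand setting of the authors' quantification is not given in the sources used here. DDIT3 shares 355 exon bases with MARS1, which was at 33.3 and 56.2 FPKM in METTL3 WT cells and at 37.2 and 63.4 FPKM in METTL3 K177Q cells. EIF2AK1 shares 532 with AIMP2, at 48.4 and 134 FPKM and at 51.4 and 118 FPKM, and ATF5 shares 565 with NUP62, at 13.9 and 29.3 FPKM and at 13.9 and 29.5 FPKM. All 3 of these neighbours had higher polysome than sub-polysome levels, the opposite of the genes they overlap. Shorter overlaps were those of IL4I1 with ATF5 (75 bases), MBD6 with DDIT3 (58) and GPATCH11 with EIF2AK2 (35). IL4I1 and GPATCH11 also ran opposite to the gene they overlap, and MBD6 ran the same way as DDIT3. ENSG00000285133, on the same strand as DDIT3, shares 105 bases with it and has no values here. ATF4 has 4 pseudogenes named after it in GENCODE 44 and EIF2AK1 has 1, with which reads could be shared. The part of shared reads in the ratios was not tested.

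The genes with the profile most like that of ATF4 were COX20, PARD6A and CDK2AP1, by the Euclidean distance between log2 values centred on each gene's mean over the 4 libraries. The distances were 0.040, 0.11 and 0.13, with a median of 2.15 over the 5378 genes compared, which had a mean of at least 10 FPKM. COX20, for an assembly factor of cytochrome c oxidase, had a translation efficiency of -1.67 in METTL3 WT and -2.08 in METTL3 K177Q cells, nearly that of ATF4. With 4 values per gene such a likeness is weak.

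Around these genes, 5 lists of the pathway were described by the same limits. Of 48 genes taken as targets of ATF4 and CHOP, 44 passed the minimum. With METTL3 WT 20 of them were at least 1.5-fold higher in the polysome fraction and 4 lower, which is 45.5% and 9.09%, against 28.1% and 19.1% of all genes. Their median log2 ratio was 0.45, beside 0.14 for all genes. In METTL3 K177Q cells the numbers were 20 and 4 as well, against 30.2% and 21.3% of all genes, with a median of 0.45, beside 0.16. Both medians were above 0, whereas ATF4 and DDIT3 were below 0 in both genotypes. The 4 lower genes, picked out after their values were seen, were CEBPG, JDP2, EIF4EBP1 and SLC38A2 in METTL3 WT cells, with log2 ratios of -0.90, -0.82, -0.87 and -0.77.

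Between the genotypes, 0 of the 44 target genes were 1.5-fold higher in translation efficiency and 1 was lower, against 4.08% and 7.03% of all genes. The latter was PSPH, of serine synthesis, with a log2 ratio of -0.61 (counting SE 0.13), and it was no longer counted with a pseudocount of 1 or with TPM. TPM gave 3 higher, where 18.6% of all genes were. The median was 0.01. Among members that averaged 10 FPKM or more, the lowest ratios were those of CTH, which makes cysteine from cystathionine, with -0.51, and CHAC1, which degrades glutathione, with -0.48. In both the sub-polysome level was higher in METTL3 K177Q cells, at 6.65 against 4.73 FPKM for CTH and 19.4 against 13.7 FPKM for CHAC1, while the polysome levels differed little. Among the same members the highest ratios were those of VEGFA, the angiogenic growth factor, with 0.40 (SE 0.039), and of the alanyl-tRNA synthetase gene AARS1, with 0.27 (SE 0.071). VEGFA was at 53.8 FPKM in the polysome library of METTL3 WT and 83.9 FPKM in that of METTL3 K177Q cells.

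Of 15 other mRNAs listed as having known uORFs, 13 passed the minimum. The canonical leader could be searched for 12 of these, and 10 held an upstream ATG. With METTL3 WT 5 were at least 1.5-fold lower in the polysome fraction and 1 was higher, against 19.1% and 28.1% of all genes. In METTL3 K177Q cells 4 were lower and 2 higher, against 21.3% and 30.2%. The medians were -0.35 and -0.21. Between the genotypes 2 had a lower translation efficiency and 0 a higher one, against 7.03% and 4.08% of all genes, with a median of 0.14. These counts depend on the scaling, and TPM gave 0 lower and 2 higher, against 2.83% and 18.6% of all genes. The 2 lower genes were C19orf48, at -0.66 (SE 0.10) and with TPM at -0.36, and UCP2, for a mitochondrial uncoupling protein, at -0.59 (SE 0.066) and with TPM at -0.29. C19orf48 was at 125 and 34.6 FPKM in METTL3 WT cells and at 121 and 21.2 FPKM in METTL3 K177Q cells, so the levels differed more in the polysome fraction, as those of ATF4 did. Of all genes that passed the minimum, 5332 had a ratio above 0 and 5573 below, and of the 13 mRNAs 9 and 4. The highest, picked out after their values were seen, were MDM2, whose product degrades p53, with 0.54 (SE 0.093), and the amino acid transporter gene SLC7A1 with 0.29 (SE 0.073). Among members that averaged 10 FPKM or more, EPRS1, the glutamyl-prolyl-tRNA synthetase gene, had 0.21 and SLC35A4, whose uORF is long, had 0.19.

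Of 18 factors that act with eIF2, among them the subunits of eIF2 and of its exchange factor eIF2B, all passed the minimum. With METTL3 WT 6 were higher and 1 lower in the polysome fraction, which is 33.3% and 5.56%, against 28.1% and 19.1% of all genes. With METTL3 K177Q 9 were higher and 1 lower, against 30.2% and 21.3%. Between the genotypes 1 was higher and 0 were lower, against 4.08% and 7.03%. That gene was EIF5B, which joins the ribosomal subunits at the start codon, with a log2 ratio of 0.63 (SE 0.063). A pseudocount of 1 put it just short of the limit, at 0.58, and TPM gave 2 higher, against 18.6% of all genes. EIF5B was at 20.7 and 20.9 FPKM in METTL3 WT cells and at 9.38 and 14.7 FPKM in METTL3 K177Q cells, so both levels were lower and the sub-polysome level more so. BZW2, an eIF5 mimic, had 0.29. MCTS1, which helps recycle and reinitiate ribosomes, had -0.35 and EIF2D, a related factor, had -0.23. The median was 0.04.

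Of 12 partners of the kinases and phosphatases, 0 were 1.5-fold higher and 0 lower between the genotypes, against 4.08% and 7.03% of all genes, with a median of 0.07. TPM gave 2 higher, against 18.6%. In the polysome fraction 2 were higher and 2 lower with METTL3 WT and 3 higher and 1 lower with METTL3 K177Q, against the shares of all genes given for the previous list. PRKRA and TARBP2, which bind PKR and activate or inhibit it, stood at opposite ends with 0.50 (SE 0.11) and -0.48 (SE 0.10). GCN1, the activator of GCN2, had 0.10 and PPP1CA, a catalytic subunit of protein phosphatase 1, had -0.15. Of 18 other genes of the unfolded protein response, the endoplasmic reticulum branch that includes PERK, 0 were higher and 0 lower, with a median of 0.06, and TPM gave 1 higher, against 18.6% of all genes. In the polysome fraction 7 of the 18 were higher and 0 lower with METTL3 WT, against 28.1% and 19.1% of all genes, and 10 were higher and 1 lower with METTL3 K177Q, against 30.2% and 21.3%. The medians were 0.52 and 0.61. HYOU1, a chaperone of the endoplasmic reticulum, had 0.29 and MBTPS1, the protease that first cuts ATF6, had 0.22. The secreted factor MANF had -0.44 and the chaperone CALR -0.36, and the sub-polysome levels of both were higher in METTL3 K177Q cells, at 273 against 209 FPKM for MANF and 1514 against 1057 FPKM for CALR.

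**Figure D5:**
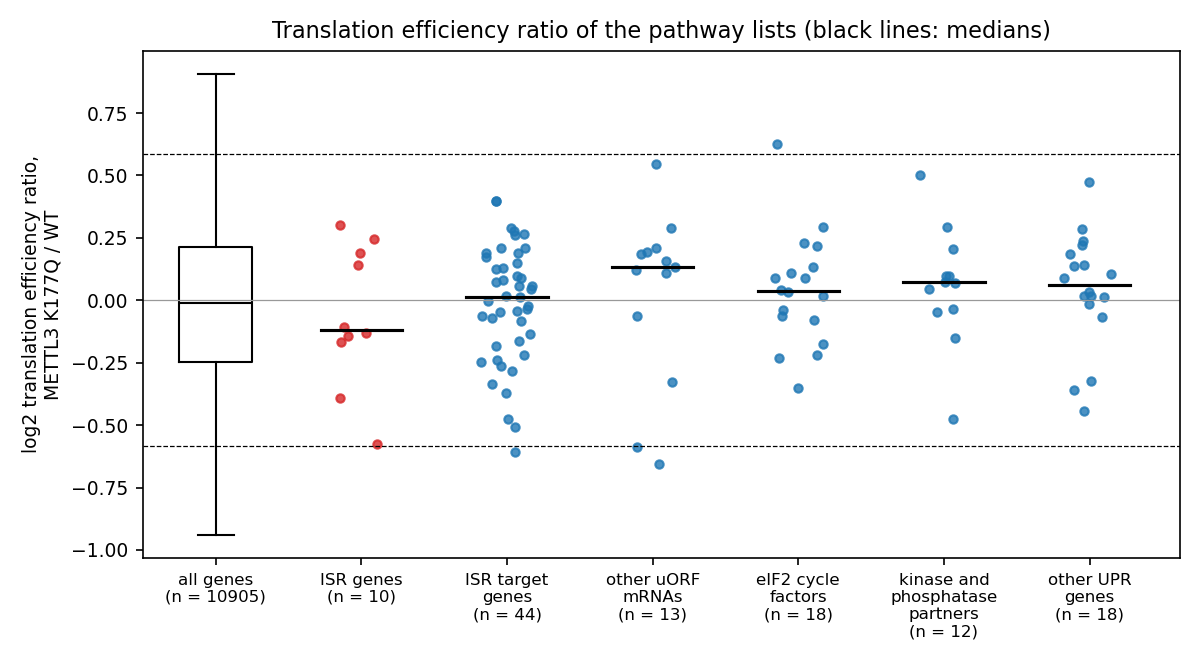
log2 translation efficiency ratio of METTL3 K177Q to METTL3 WT (y axis) for all genes (box, quartiles), for the 10 integrated stress response genes (red) and for the genes of each pathway list that passed the minimum (blue), with black lines at the medians and dashed lines at 1.5-fold. Of the lists only 1 point lies above the upper dashed line, EIF5B at 0.63, and the points below the lower one are PSPH, C19orf48 and UCP2.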

How the data were processed

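The table deposited by the authors gives FPKM per gene, and the values of the 4 listed libraries were used as given. The submitters' processing notes name STAR 2.7, StringTie 2.1.5 and hg38 without roles, and the annotation is not given in the sources used here. The table's other 4 columns of values carry the number 1 in their names, which stands for replicate 1 of the same conditions if read like the others. They could be tied to none of the listed samples, all of replicate 2, and were not analysed here. The genes and lists were chosen with earlier results of these data known.

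Translation efficiency was the log2 ratio of polysome to sub-polysome FPKM with a pseudocount of 0.1, which understates changes of low genes. Genes averaging under 1 FPKM were left out, which kept 10905. The limit for calling a gene higher or lower was 1.5-fold, as in the study, and no p-value is given. Genes named in the pathway lists were the 2 with the highest and the 2 with the lowest ratio among those with a mean of at least 10 FPKM. C19orf48 was annotated through its later symbol. Fragments were approximated from FPKM and the canonical transcript length in GENCODE 44, with log2 values from 4.9 to 5.7 taken as 1 fragment. Upstream ATGs were searched in the canonical leader, and the transcripts used by these cells may differ. The calculation was tested on simulated data. Alternatives were pseudocounts, minimum means, scalings, centring, a 2-fold limit and, chosen after seeing the data, removal of the trend on coding length. Python 3.11.15, pandas 2.3.3, numpy 2.4.6, statsmodels 0.14.6 and matplotlib 3.10.9 were used.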

Additional observations from a re-analysis of the deposited data

Results flagged for a closer look

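Of the 10 genes and the 20 pathway genes named by rule, 5 had a polysome to sub-polysome ratio on opposite sides of 1 in the genotypes. With 1 library per condition the difference was not tested, and 12.3% of all genes that passed the minimum did the same. EIF2AK3 had a log2 ratio of -0.0067 in METTL3 WT and 0.24 in METTL3 K177Q cells, within its counting error at about 165 to 208 fragments per library. CHAC1 had 0.30 and -0.17, MANF had 0.25 and -0.19, EIF2D had 0.013 and -0.22, and SLC35A4 had -0.00034 and 0.19. The METTL3 WT values of EIF2D (SE 0.066) and SLC35A4 (SE 0.044) were within counting error of 0. Other scalings changed which side a gene was on. Under TPM all 5 were above 1 in both genotypes, so 0 of these 5 were on opposite sides. TRIB3, not among them, was then on opposite sides, with log2 ratios of -0.07 and 0.37. Of the same 5, equal totals that leave out ribosomal protein genes gave 2, EIF2AK3 and SLC35A4, and median-of-ratios size factors gave 4, all but EIF2D. These counts cover the 5 genes picked in FPKM, so they could only fall. Named genes that came to lie on opposite sides under another scaling are not in them.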

How the results depend on the processing

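No paired analysis was possible because each combination of genotype and fraction had 1 library, which also means that no replicate could be omitted. The number of the 10 genes at least 1.5-fold changed in translation efficiency was 0 higher and 0 lower under all alternatives except 2. TPM gave 1 higher (PPP1R15B). Median-of-ratios size factors put DDIT3 just past the lower limit at -0.59, with a median of all genes of -0.03. TPM and equal totals without ribosomal protein genes reversed the median of the 10 genes from -0.12 to 0.17 and 0.11, and that of all genes from -0.01 to 0.29 and 0.22. With TPM the medians of the lists were 0.31 for the target genes, 0.44 for other uORF mRNAs, 0.34 for the eIF2 factors, 0.37 for the partners and 0.35 for the unfolded protein response. With equal totals they were 0.25, 0.37, 0.27, 0.30 and 0.29. The numbers higher in these lists were 3, 2, 2, 2 and 1 with TPM and 2, 1, 1, 1 and 1 with equal totals, with 0 lower in each. A pseudocount of 1 gave 0 higher in each and 1 lower, C19orf48, and the 2-fold limit gave 0 in either direction. A minimum mean of 10 FPKM left out PSPH, and removal of the trend on coding length gave 1 higher, among the partners, and 0 lower. Centred ratios gave 1 lower among other uORF mRNAs, and no filter gave 2 higher target genes and 3 lower other uORF mRNAs. The median of the 10 genes between the sub-polysome libraries moved from -0.02 to -0.22 under TPM and equal totals alike. It was above 0 with minimum means of 5 and 10 FPKM, at 0.053 and 0.078. Between the polysome libraries it reversed from -0.047 to 0.064 with a minimum mean of 5 FPKM, which leaves out 3 kinases, and was 0.046 under TPM. With centred ratios 6 of the 10 genes were lower in the polysome fraction in METTL3 K177Q cells, in place of 4. In METTL3 K177Q cells 3 of the 10 genes were higher in the polysome fraction with TPM, and 0 with centred ratios, with either higher minimum, with the 2-fold limit and with the trend on coding length removed. In METTL3 WT cells 0 were higher with either higher minimum and with the 2-fold limit, the latter with 3 lower. With the trend on coding length removed, DDIT3 had a translation efficiency ratio of -0.35, ATF4 of -0.33 and EIF2AK4 of -0.43. For all genes, a pseudocount of 1 gave 159 higher and 519 lower, no filter 1823 and 2140, minimum means of 5 and 10 FPKM 88 and 410, and 38 and 312, the 2-fold limit 84 and 207, TPM 2070 and 315, equal totals 1509 and 341, and the trend removed 297 and 403. Apart from shifts that follow from the construction of a scaling, a filter or a limit, the cause was not tested. Of 539 values of single genes under alternatives, 119 moved beyond counting error and none that was past 1.5-fold changed sign.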

Other observations

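Across all genes, the translation efficiency ratio of METTL3 K177Q to METTL3 WT differed with coding length and with the number of upstream ATGs. Its median was -0.27 for genes with under 600 coding bases, -0.10 from 600 to under 1200, 0.06 from 1200 to under 2400 and 0.21 for 2400 or more. It was -0.03 for genes without an upstream ATG and 0.11 for those with 3 or more, whose coding sequences are also longer, with a median of 1737 against 1173 bases. ATF4 and DDIT3, with 1053 and 507 coding bases and 3 upstream ATGs each, had ratios of -0.39 and -0.58. Whether either feature bears on the ratios of ATF4 and DDIT3 was not tested. Within their length classes, 16.4% of genes had a lower ratio than ATF4 and 16.5% a lower one than DDIT3. EIF2AK4, with 4947 coding bases, was the gene of the 10 furthest below its length class, where 9.04% of genes had a lower ratio than its -0.17, and PPP1R15B the furthest above, with 80.6% lower. With 1 library per condition, no difference between these classes was tested.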
